A study of Mus musculus with 24 samples.

Results

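The proteasome subunit genes were taken as the protein-coding mouse genes whose symbol begins with Psma, Psmb, Psmc, Psmd or Psme followed by a number. The rule found 45 genes among the 46078 genes counted in each library, and 4 pseudogenes with matching symbols were left out. They were 7 genes of the 20S alpha ring, 7 of the standard 20S beta ring, 3 immunoproteasome beta subunits (Psmb8, Psmb9 and Psmb10), 6 ATPases and 14 other genes of the 19S cap, 5 activators and 3 others. Those 3 were Psma8, the alpha subunit of testis, Psmb11, the beta subunit of the thymus, and Psmc3ip, a meiotic recombination factor that matches the symbol only. RNA was sequenced from hearts of C57BL/6 mice. The animals had sham surgery, ischemia for 45 min, or that ischemia followed by 0.5, 1, 1.5, 3, 6 or 12 h of reperfusion. Each of the 8 groups had 3 libraries. Age, sex and the part of the heart taken were not given in the sources used here. The labels do not tell whether each library is a different mouse, so p-values measure only the spread between these samples, which may be technical.

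The proteasome degrades proteins that carry ubiquitin chains. Its 20S core is a barrel of stacked rings, with alpha subunits forming the outer gates and beta subunits the inner chamber, where Psmb5, Psmb6 and Psmb7 carry the proteolytic sites. The 19S cap binds ubiquitin chains and removes them, and its ATPases unfold the substrate and thread it into the barrel. Interferon can replace the catalytic subunits by Psmb8, Psmb9 and Psmb10, which favour peptides for antigen presentation, and the factor encoded by Nfe2l1 raises the standard subunits when proteasome activity is short. In heart muscle the system turns over contractile proteins and proteins damaged by oxidation.

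Reads counted per library ran from 13407465 to 17181458, and the 45 genes together held 0.278% to 0.371% of them. Mitochondrial genes took 28.9% to 33.2% of the reads in sham hearts and 19.04% to 21.3% at 6 h, and 1 ischemia library, replicate 3, was at 19% beside a group mean of 26.3%. Replicate 1 of 1 h was the highest of all 24 libraries for Psmb4, Psmb5, Psmb6 and Psmb7. Levels are given as CPM, each gene's share of the library's counts on a common scale with trimmed mean (TMM) factors. The tissue label was checked with 8 cardiomyocyte markers, none of which was at 0 in any group and which summed to 59110 to 62404 CPM in sham hearts. Of the 45 genes 44 passed the filter on low counts, and Psmb11, with 0 to 0.124 CPM, was not tested. In bulk tissue fewer cells of a type and less RNA per cell cannot be told apart. Gene positions come from GENCODE vM21 and are on GRCm38 (mm10).

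Promoter windows, 250 bases before to 50 after the annotated start, came from RefSeq on GRCm38.p6 and were matched to 38 of the 45 genes. They are printed for Psmb5 and Psmb6, catalytic subunits both called higher at 0.5, 1, 3 and 6 h, and for Psme4, which fell. Those of Psmd11 and Psmb9, the genes with the largest called rise and fall, are printed too. Capitals mark a match, on either strand, to the antioxidant response element core TGACNNNGC, the cyclic AMP response element TGACGTCA, the interferon regulatory factor core GAAANNGAA, the STAT site TTCNNNGAA or the CCAAT box. The windows were chr14:54617946-54618245 on the minus strand for Psmb5, chr11:70525107-70525406 on the plus strand for Psmb6 and chr11:30771525-30771824 on the plus strand for Psme4. That of Psmd11 was chr11:80428365-80428664 on the plus strand, and that of Psmb9 was chr17:34187281-34187580 on the minus strand.
Psmb5: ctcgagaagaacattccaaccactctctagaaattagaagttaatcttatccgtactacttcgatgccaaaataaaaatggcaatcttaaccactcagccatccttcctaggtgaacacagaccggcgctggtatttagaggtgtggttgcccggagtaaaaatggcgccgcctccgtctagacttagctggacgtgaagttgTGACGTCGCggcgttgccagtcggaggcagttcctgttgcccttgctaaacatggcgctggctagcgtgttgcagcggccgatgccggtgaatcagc
Psmb6: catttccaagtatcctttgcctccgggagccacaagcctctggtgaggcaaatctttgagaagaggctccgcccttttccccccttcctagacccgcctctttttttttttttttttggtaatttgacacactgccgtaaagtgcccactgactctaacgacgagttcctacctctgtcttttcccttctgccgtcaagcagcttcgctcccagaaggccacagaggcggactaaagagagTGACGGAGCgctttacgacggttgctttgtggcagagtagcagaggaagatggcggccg
Psme4: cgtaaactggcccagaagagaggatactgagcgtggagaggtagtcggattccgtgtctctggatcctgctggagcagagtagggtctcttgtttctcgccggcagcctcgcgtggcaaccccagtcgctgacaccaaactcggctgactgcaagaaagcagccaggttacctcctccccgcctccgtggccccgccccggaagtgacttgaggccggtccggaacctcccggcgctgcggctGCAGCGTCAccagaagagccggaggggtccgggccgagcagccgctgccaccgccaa
Psmd11: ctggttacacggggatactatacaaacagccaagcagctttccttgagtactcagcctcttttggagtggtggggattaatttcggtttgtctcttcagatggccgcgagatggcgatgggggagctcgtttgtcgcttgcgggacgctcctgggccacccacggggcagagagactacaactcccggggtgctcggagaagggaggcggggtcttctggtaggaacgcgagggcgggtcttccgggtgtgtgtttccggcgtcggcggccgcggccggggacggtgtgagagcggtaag
Psmb9: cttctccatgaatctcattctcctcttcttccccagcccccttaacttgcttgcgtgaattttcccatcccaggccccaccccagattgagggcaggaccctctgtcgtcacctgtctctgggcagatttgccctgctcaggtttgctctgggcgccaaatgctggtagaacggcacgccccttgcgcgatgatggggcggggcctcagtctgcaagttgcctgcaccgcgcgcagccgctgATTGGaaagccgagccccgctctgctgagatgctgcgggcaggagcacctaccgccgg

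The antioxidant core stood at position -47 from the start in Psmb5, -9 in Psmb6 and -7 in Psme4, counted to the left end of the match. It was in 6 of the 38 genes (15.8%: Psmb5, Psmb6, Psmc6, Psmd9, Psmd12 and Psme4), against 13.99% of all 27025 genes with a window. The interferon core was in 6 genes (15.8%: Psmb3, Psmb4, Psmc2, Psmd4, Psmd9 and Psme1), against 9.76% of all genes, and the STAT site in Psmb8 and Psmd2 (5.26%, against 9.55%). The CCAAT box was in 15 genes (39.5%, against 41.1%), among them Psmb9 at position -8, and the cyclic AMP element in 0 (against 2.03%). The antioxidant core, at a share near that of all genes, lay in windows of genes that rose (Psmb5, Psmb6 and Psmd9) and of Psme4, which fell. It also lay in those of Psmc6 and Psmd12, which were not called against sham. The Psmd11 window held none of the 5 motifs. The cyclic AMP element and the antioxidant core share their first 4 letters and can overlap, and a match is a description of the letters only.

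The proteasome genes did not move as 1 block. The catalytic subunits Psmb5, Psmb6 and Psmb7, with Psmb4, Psmc1 and Psmd4, rose at 0.5 h and 1 h of reperfusion, and more genes of the 19S cap rose at 3 h and 6 h. Among the genes called at 6 h Psmd11 had the largest rise. Psmb9 fell at 3, 6 and 12 h, Psme4 at 0.5 h and 6 h, and Psmd5 at 0.5, 1, 3 and 6 h. By edgeR's quasi-likelihood test across the 8 groups, with Benjamini-Hochberg adjustment over all genes, 19 of the 44 genes changed, against 64.3% of the 15128 genes tested. Those 19 were Psmb4 to Psmb9, Psmc1, Psmc3, Psmc4, Psmc3ip, Psmd1, Psmd3, Psmd4, Psmd5, Psmd7, Psmd9, Psmd11, Psme3 and Psme4.

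Comparisons with sham share the same 3 sham libraries and are not independent. After ischemia alone 0 genes were called higher and 0 lower by edgeR, with 5 at an unadjusted p under 0.05 and 0 called by DESeq2; of all genes 0.0925% were higher and 0% lower. At 0.5 h 6 genes were higher and 3 lower (of all genes 7.43% higher and 4.48% lower), and at 1 h 7 were higher and 1 lower (7.46% and 3.41%). At 1.5 h 0 were called by edgeR or DESeq2, with 10 at an unadjusted p under 0.05 (4.55% and 2.99%). Of the early calls, 4 at each of 0.5 h and 1 h were in the beta ring.

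More genes were called at 3 h and 6 h than before, among the proteasome genes and among all genes alike. At 3 h 13 genes were higher and 2 lower (of all genes 18.4% and 16.9%), at 6 h 18 and 3 (24.6% and 22.9%), and at 12 h 8 and 1 (16.9% and 14.9%). The 8 higher at 12 h were a share near that of all genes. At 12 h 9 proteasome genes were called in either direction, as many as at 0.5 h. Of all genes more were called at 12 h than at 0.5 h. The median log2 fold change of the 44 genes was 0.13 at 0.5 h, 0.21 at 1 h, 0.08 at 1.5 h, 0.11 at 3 h, 0.27 at 6 h and 0.12 at 12 h, while the median of all genes lay between -0.01 and 0.01. Scaled by library totals in place of TMM factors, 13 genes were higher and 0 lower at 0.5 h, 11 and 0 at 1 h, 21 and 2 at 6 h, and 23 and 0 at 12 h. That scaling moved the median of all genes to 0.12 at 0.5 h and 0.23 at 12 h. Of the 62 calls against sham, 24 were made under every alternative setting, which the accounts below name.

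**Figure D1:**
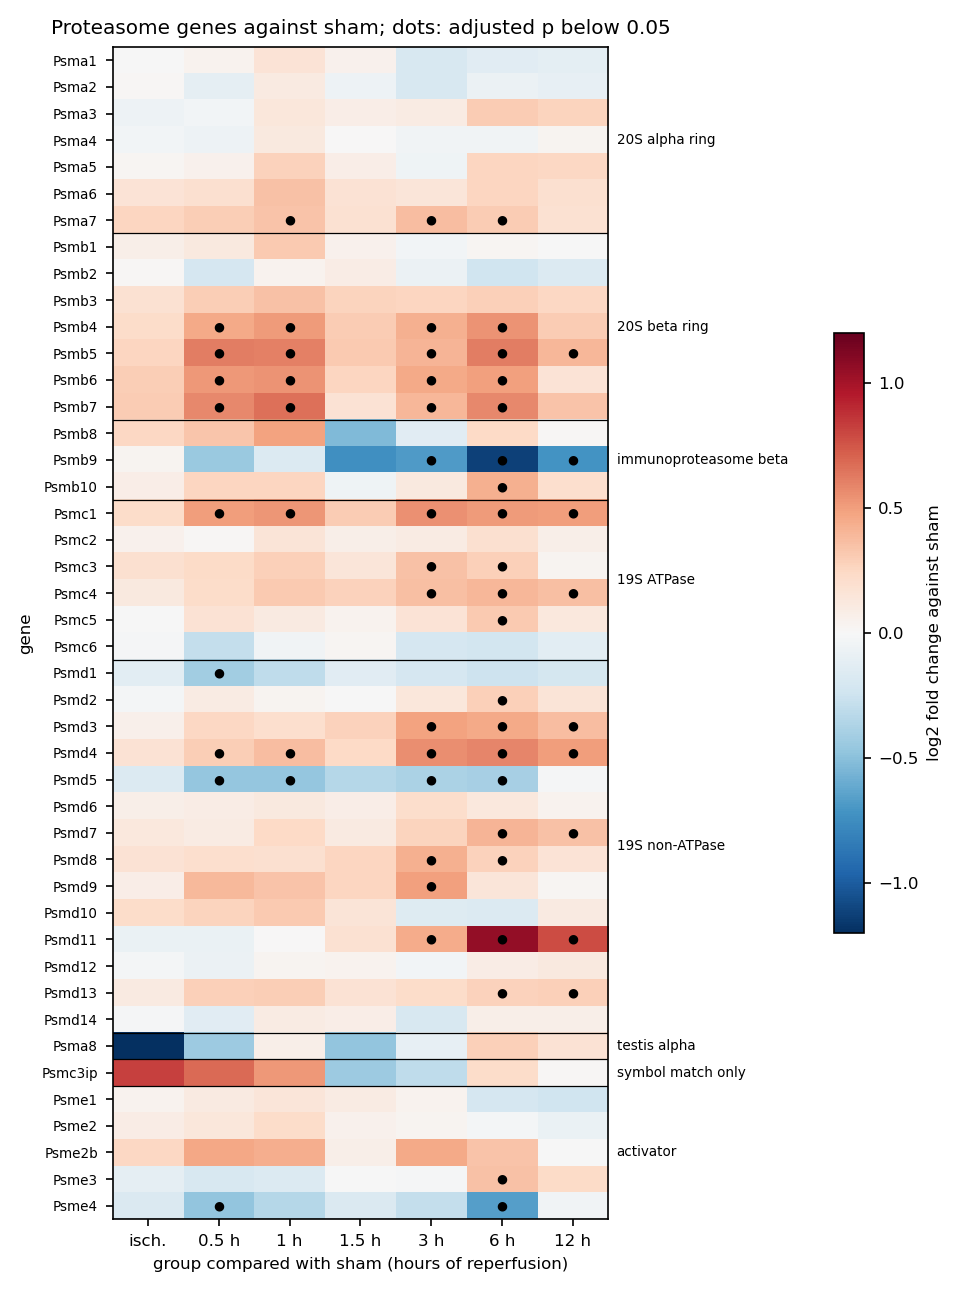
Log2 fold change against sham (colour, saturated beyond 1.2 in either direction) of the 44 tested genes, by role, in the 7 comparisons in columns; dots mark an adjusted p under 0.05. At 0.5 h and 1 h 4 dots lie in the beta ring and the others mostly in the 19S cap, more 19S genes have dots at 3 h and 6 h, and the dark Psma8 cell after ischemia (-1.51) is a gene under 1 CPM that was not called.

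The genes differ in length, and length moved with the changes. Nuclear genes of up to 1500 bases in the deposited length column had a median log2 fold change of 0.25 at 0.5 h and 0.33 at 1 h, and genes over 6000 bases -0.15 and -0.17. The 6 proteasome genes called higher at 0.5 h were 871 to 2808 bases long and the 3 called lower 7230 to 8382. At 6 h the medians of all short and long genes were 0.19 and -0.14, and the genes called higher spanned 871 to 6383 bases, the longest being Psmd11.

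A fit with the length trend of each library removed, added after the data were seen, gave fewer early calls. It called Psmb5, Psmb6, Psmb7 and Psmc1 higher and Psma2, Psmb2, Psmc6 and Psmd1 lower at 0.5 h, and 4 genes higher (Psmb6, Psmb7, Psmc1 and Psmd4) and 0 lower at 1 h. At 3 h it called 11 higher and 2 lower (Psma2 and Psmb9), at 6 h 15 higher and 3 lower (Psmb2, Psmb9 and Psme4), and at 12 h 8 higher and 2 lower (Psmb9 and Psme1). The rises of Psmb5, Psmb6 and Psmb7 at 0.5 h and of Psmd11 at 3, 6 and 12 h were thus called with and without the length term, while Psmd5 was called only without it.

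**Figure D2:**
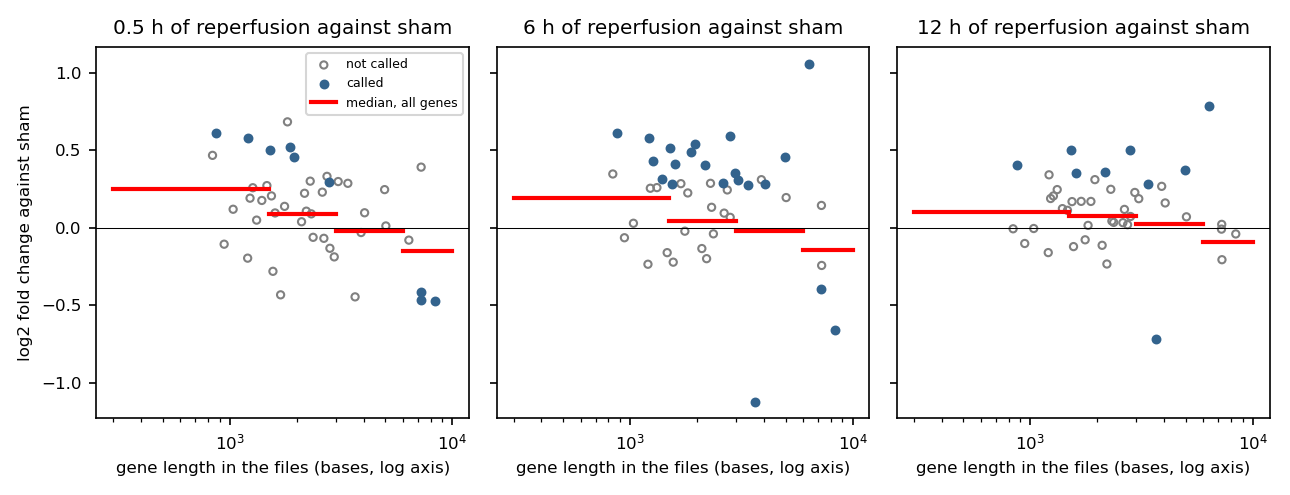
Log2 fold change against sham of each proteasome gene over its length in bases (log axis) at 0.5, 6 and 12 h, with called genes marked by adjusted p under 0.05 and bars for the median of all nuclear genes in 4 length ranges that meet at 1500, 3000 and 6000 bases. At 0.5 h the called genes are short and high or long and low, and at 6 h Psmd11, at 6383 bases, lies far above the median of its length range (-0.14).

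In the 20S alpha ring, which gates the core, Psma7 alone was called against sham. Psma7 (chromosome 2, 180036374 to 180042433, minus strand) had 63.8, 62.3 and 63.3 CPM in sham hearts, 96.0, 66.8 and 77.2 at 1 h, 84.1, 83.8 and 77.7 at 3 h and 78.6, 82.3 and 73.0 at 6 h. All libraries outside the sham group lay above all sham libraries, with 1 h replicate 1 the highest. Against sham the log2 fold change was 0.34 ± 0.11 (SE) at 1 h (edgeR adjusted p = 0.0454), 0.37 ± 0.11 at 3 h (0.00997) and 0.30 ± 0.11 at 6 h (0.0248).

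The 3 h call of Psma7 was made under every alternative. The 1 h call was lost when any sham replicate or 1 h replicate 1 or 3 was left out (adjusted p 0.0593 to 0.259). It was also lost with no filter on low counts (0.168), with a block for replicate number and in the length-corrected fit (0.079). The 6 h call was lost when any sham replicate or 6 h replicate 1 or 2 was left out (adjusted p 0.0535 to 0.0943) and with no filter on low counts (0.087). The other 6 alpha genes, Psma1 to Psma6, had log2 fold changes of -0.14 to 0.31 at 6 h and were not called at any time.

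In the standard beta ring 4 of 7 genes, Psmb4, Psmb5, Psmb6 and Psmb7, rose at 0.5, 1, 3 and 6 h, and Psmb5 also at 12 h. Psmb5 carries the chymotrypsin-like site, Psmb6 the caspase-like site and Psmb7 the trypsin-like site, while Psmb4 is structural. The structural subunits Psmb1, Psmb2 and Psmb3 were not called against sham at any time. The median log2 fold change of the 7 genes was 0.46 at 0.5 h, 0.51 at 1 h, 0.26 at 1.5 h, 0.40 at 3 h, 0.49 at 6 h and 0.25 at 12 h.

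Psmb5 (chromosome 14, 54614119 to 54618022, minus strand) had 43.9, 44.9 and 38.1 CPM in sham hearts and 43.6, 46.4 and 61.7 after ischemia. It had 69.4, 61.3 and 63.1 at 0.5 h, 75.7, 60.7 and 56.2 at 1 h and 57.4, 49.8 and 51.0 at 1.5 h. It had 49.2, 56.4 and 62.8 at 3 h, 63.6, 66.8 and 63.7 at 6 h and 61.5, 52.0 and 54.2 at 12 h. Every reperfused library lay above every sham library, and the ischemia libraries overlapped sham. The log2 fold change was 0.61 ± 0.13 at 0.5 h (edgeR adjusted p = 0.00567), 0.60 ± 0.13 at 1 h (0.00532), 0.41 ± 0.13 at 3 h (0.0191), 0.61 ± 0.13 at 6 h (0.000554) and 0.40 ± 0.13 at 12 h (0.0216).

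The calls of Psmb5 at 0.5 h and 6 h were made under every alternative. At 1 h the call was lost when 1 h replicate 1 was left out (adjusted p = 0.0502) and in the length-corrected fit (0.125). The 3 h call was lost when sham replicate 3 or 3 h replicate 3 was left out (adjusted p 0.0938 to 0.112) and in the length-corrected fit (0.174). That at 12 h was lost when sham replicate 3 or 12 h replicate 1 was left out (adjusted p 0.0938 to 0.108). In the annotation 12.1% of its exon bases are shared with Mir686 on the same strand.

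Psmb7 (chromosome 2, 38588036 to 38644087, minus strand) had the largest called change of the ring. It had 88.2, 86.6 and 85.5 CPM in sham hearts, 138, 124 and 126 at 0.5 h, 173, 116 and 121 at 1 h and 114, 87.5 and 92.8 at 1.5 h. It had 99.5, 115 and 129 at 3 h, 126, 136 and 127 at 6 h and 116, 111 and 102 at 12 h. The 1 h replicate 1 was the highest of all 24 libraries, and only the 1.5 h libraries overlapped sham. On the log2 scale the change was 0.58 ± 0.14 at 0.5 h (edgeR adjusted p = 0.0112), 0.66 ± 0.14 at 1 h (0.00429), 0.40 ± 0.14 at 3 h (0.0286) and 0.58 ± 0.14 at 6 h (0.00154). The 1 h and 6 h calls were made under every alternative. At 0.5 h the call was lost when 0.5 h replicate 1 was left out (adjusted p = 0.0583). The 3 h call was lost when any sham replicate or 3 h replicate 2 or 3 was left out (adjusted p 0.0536 to 0.15) and in the length-corrected fit (0.0656). Psmb7 shares 11.8% of its exon bases with Nek6 on the opposite strand.

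Psmb6 (chromosome 11, 70525367 to 70527858, plus strand) followed a like course. It had 59.5, 50.9 and 54.0 CPM in sham hearts, 86.2, 71.0 and 78.4 at 0.5 h, 99.1, 74.6 and 66.0 at 1 h and 67.9, 76.2 and 81.7 at 3 h. It had 79.1, 77.2 and 74.2 at 6 h and 61.4, 61.0 and 62.4 at 12 h. None of these groups overlapped sham, and the ischemia and 1.5 h libraries did. Its log2 fold change was 0.52 ± 0.13 at 0.5 h (edgeR adjusted p = 0.0153), 0.54 ± 0.13 at 1 h (0.0107), 0.46 ± 0.13 at 3 h (0.00994), 0.49 ± 0.13 at 6 h (0.00426) and 0.17 ± 0.13 at 12 h, not called (0.355). The 6 h call was made under every alternative. That at 0.5 h was lost when sham replicate 2 or 3 or 0.5 h replicate 1 was left out (adjusted p 0.0604 to 0.0862). At 1 h the call was lost when sham replicate 2 or 1 h replicate 1 was left out (adjusted p 0.0583 to 0.102). The 3 h call was lost when sham replicate 2 or 3 h replicate 3 was left out (adjusted p 0.0507 to 0.055).

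Psmb4 had 76.2 ± 2.57 (SD, n = 3) CPM in sham hearts and 111 ± 8.79 at 6 h, a log2 fold change of 0.54 ± 0.14 (edgeR adjusted p = 0.00305) that was called under every alternative. At 0.5, 1 and 3 h the log2 fold changes were 0.46 (0.0376), 0.51 (0.0238) and 0.43 (0.021). That at 0.5 h was lost when any sham replicate or any 0.5 h replicate was left out (adjusted p 0.0569 to 0.158) and in the length-corrected fit (0.0683). At 1 h the call was lost when any sham replicate or 1 h replicate 1 was left out (adjusted p 0.0648 to 0.206) and in the length-corrected fit (0.0863). The 3 h call was lost when sham replicate 3 or 3 h replicate 3 was left out (adjusted p 0.0694 to 0.0869).

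**Figure D3:**
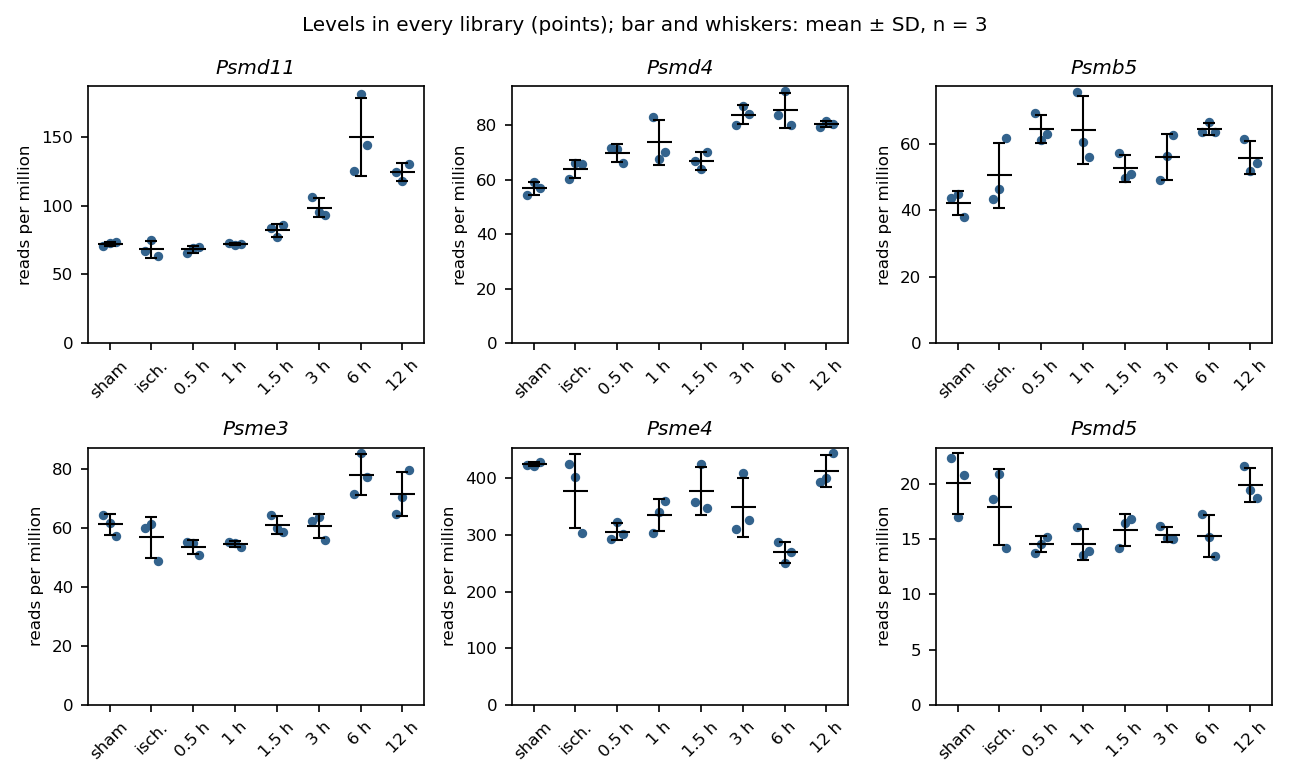
CPM in every library (points) of 6 genes over the 8 groups in order of time, with mean and SD (n = 3). Psmd11 climbs from 3 h to 181 in 1 library at 6 h, Psmd4 lies above sham in all other groups and Psmb5 in all reperfused groups, Psme3 is above sham at 6 h and 12 h, Psme4 is low at 0.5 h and 6 h and overlaps sham at 12 h, and Psmd5 is below sham from 0.5 h to 3 h.

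The 3 immunoproteasome subunits differed in their calls. Psmb9 fell at 3, 6 and 12 h, Psmb10 rose at 6 h, and Psmb8 was not called against sham at any time. Per length, their sham levels were 3.20 ± 0.344 RPKM (CPM per kilobase of gene, SD, n = 3) for Psmb8 and 2.69 ± 0.249 for Psmb9, against 48.5 ± 4.22 for Psmb5 and 29.3 ± 2.31 for Psmb6. Psmb10 had 24.6 ± 0.379, and its counterpart Psmb7 71.5 ± 1.11.

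Psmb9 (chromosome 17, 34181987 to 34187764, minus strand) had 10.4, 10.3 and 8.79 CPM in sham hearts and 8.31, 13.5 and 8.56 after ischemia. It had 6.45, 7.0 and 8.22 at 0.5 h, 8.01, 8.07 and 10.3 at 1 h and 5.54, 5.80 and 6.37 at 1.5 h. It had 9.33, 4.51 and 4.55 at 3 h, 5.85, 3.96 and 3.74 at 6 h and 7.47, 5.96 and 4.55 at 12 h. The libraries at 0.5, 1.5, 6 and 12 h lay below all sham libraries, and 3 h replicate 1 lay inside the sham range.

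The log2 fold change of Psmb9 was -0.68 ± 0.25 at 3 h (edgeR adjusted p = 0.0398), -1.12 ± 0.26 at 6 h (0.000964) and -0.72 ± 0.25 at 12 h (0.0307). The 6 h call was made under every alternative. That at 3 h was lost when sham replicate 1 or 2 or 3 h replicate 2 or 3 was left out (adjusted p 0.0982 to 0.191) and with library totals as the scale (0.0733). At 12 h the call was lost when sham replicate 1 or 2 or 12 h replicate 2 or 3 was left out (adjusted p 0.0815 to 0.137) and with library totals as the scale (0.178). Psmb9 and Tap1, which encodes a peptide transporter, start 211 bases apart and share 212 exon bases on opposite strands, and whether the counting used strand was not given in the sources used here. Tap1 had a log2 fold change of -0.37 ± 0.30 at 6 h and was not called (edgeR adjusted p = 0.336).

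Psmb8 (chromosome 17, 34197721 to 34201454, plus strand) had 8.67, 7.88 and 9.75 CPM in sham hearts, 13.6, 11.6 and 11.7 at 1 h, 5.81, 5.12 and 7.24 at 1.5 h and 12.8, 9.63 and 8.59 at 6 h. The 1 h libraries lay above sham and the 1.5 h libraries below it, and those at 6 h overlapped it. Against sham the log2 fold change was 0.49 ± 0.24 at 1 h (edgeR adjusted p = 0.198) and -0.53 ± 0.25 at 1.5 h (0.218), neither called, though the test across the 8 groups called the gene (0.0268). It shares 14.7% of its exon bases with Gm20496 on the opposite strand.

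Psmb10 (chromosome 8, 105935735 to 105938444, minus strand) had 31.8, 31.0 and 30.9 CPM in sham hearts and 45.8, 40.7 and 39.5 at 6 h, without overlap. The log2 fold change was 0.43 ± 0.15 (edgeR adjusted p = 0.0207). The call was lost when sham replicate 2 or 3 or 6 h replicate 1 was left out (adjusted p 0.0532 to 0.0814) and in the length-corrected fit (0.0582).

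Inside each library the reads of an immunoproteasome subunit were set against those of the subunit it replaces, so that library scaling did not enter. The length trend was not removed from these ratios. Psmb9 and Psmb8, at 3659 and 2736 bases, are longer than Psmb6 and Psmb5, at 1872 and 871. Psmb10 and Psmb7 have 1270 and 1214 bases. Psmb9 reads were 17.5%, 20.4% and 16.3% of Psmb6 reads in sham hearts, 14.2%, 21.1% and 10.9% after ischemia, 7.51%, 9.89% and 10.5% at 0.5 h, 7.43%, 5.17% and 5.08% at 6 h and 12.2%, 9.81% and 7.33% at 12 h. From 0.5 h on every library lay below every sham library. Both terms of the ratio had moved at 0.5 h, Psmb6 by 0.52 on the log2 scale (called) and Psmb9 by -0.45 (not called). The ratio differed across the 8 groups by a permutation test of F on log2 ratios (100000 resamples, p = 0.00522, adjusted over 3 pairs 0.0157). Psmb8 reads were 21.1% ± 4.18 (SD, n = 3) of Psmb5 reads in sham hearts and 11.6% ± 2.30 at 1.5 h (permutation p = 0.0921, adjusted 0.138). Leaving out 1 library moved this permutation p both up and down. Its lowest value, not adjusted over the pairs, was 0.0321 without 12 h replicate 2. Psmb10 reads were 36.0% ± 0.242 of Psmb7 reads in sham hearts and 32.4% ± 3.44 at 6 h (permutation p = 0.501, adjusted 0.501).

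**Figure D4:**
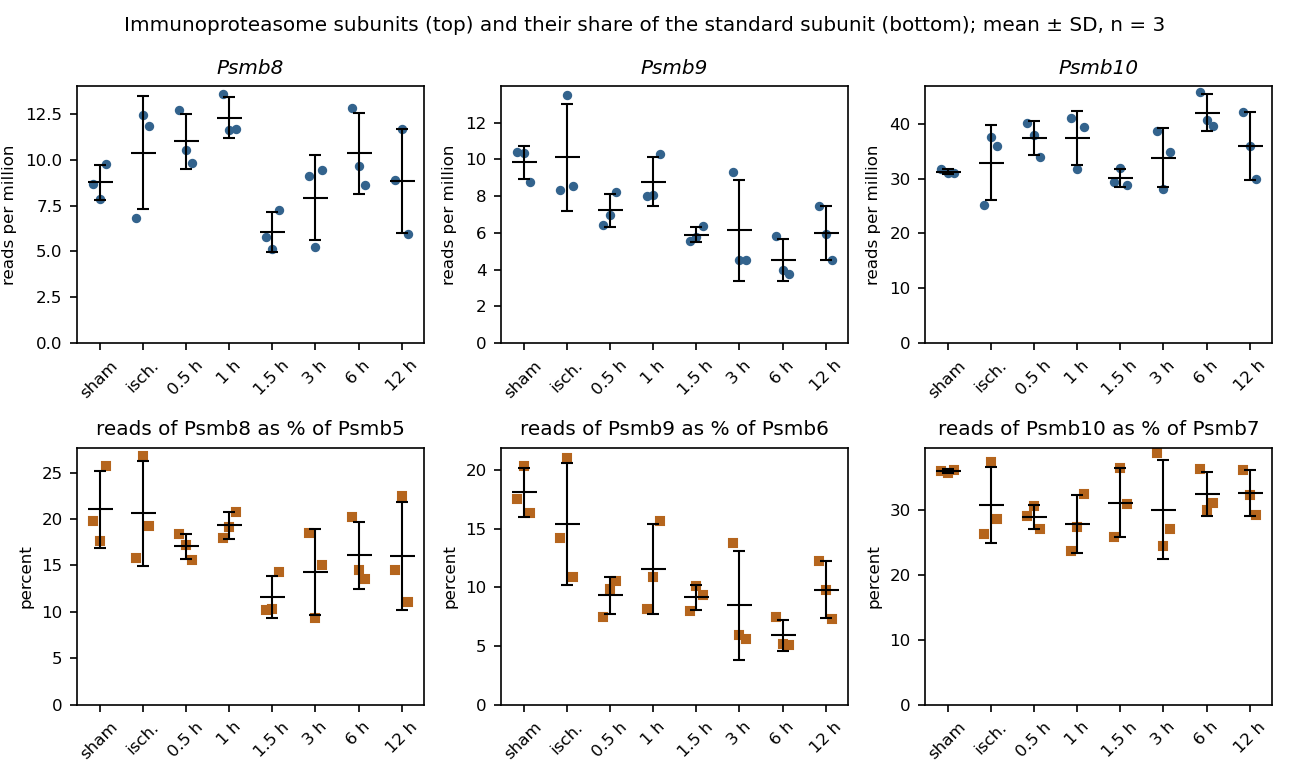
Psmb8, Psmb9 and Psmb10 in every library over the 8 groups, as CPM and as a percent of the reads of Psmb5, Psmb6 and Psmb7 in the same library, with mean and SD (n = 3). Psmb9 and its share of Psmb6 reads are lowest at 6 h (5.89% ± 1.34), below all sham libraries.

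Among the 6 ATPases that unfold the substrate, Psmc1 rose at 0.5, 1, 3, 6 and 12 h, Psmc4 at 3, 6 and 12 h, Psmc3 at 3 h and 6 h, and Psmc5 at 6 h. Psmc2 and Psmc6 were not called against sham. Psmc1 (chromosome 12, 100110154 to 100123405, plus strand) had 64.9, 68.3 and 68.6 CPM in sham hearts and 64.6, 81.4 and 88.2 after ischemia. It had 102, 87.7 and 95.7 at 0.5 h, 113, 86.8 and 91.9 at 1 h and 86.8, 81.0 and 81.1 at 1.5 h. It had 95.0, 100.4 and 99.4 at 3 h, 92.2, 107 and 88.6 at 6 h and 100.1, 95.1 and 90.8 at 12 h. Every reperfused library of Psmc1 lay above every sham library, and ischemia overlapped sham.

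For Psmc1 the log2 fold change was 0.50 ± 0.12 at 0.5 h (edgeR adjusted p = 0.00834), 0.53 ± 0.12 at 1 h (0.00515), 0.55 ± 0.12 at 3 h (0.000854), 0.51 ± 0.12 at 6 h (0.000925) and 0.50 ± 0.12 at 12 h (0.00178). The 0.5 h call was lost when 0.5 h replicate 1 was left out (adjusted p = 0.0534), and the other 4 were made under every alternative. Psmc4 had 49.7 ± 3.07 (SD, n = 3) CPM in sham hearts and 65.7 ± 4.73 at 6 h, a log2 fold change of 0.40 ± 0.10 (edgeR adjusted p = 0.00259) called under every alternative. Its 3 h call was lost when sham replicate 2 was left out (adjusted p = 0.0512) and with no filter on low counts (0.0516), and its 12 h call when sham replicate 2 was left out (adjusted p = 0.0567). The 3 h call of Psmc3 was lost when sham replicate 2 or 3 h replicate 2 was left out (adjusted p 0.0507 to 0.0627) and with no filter on low counts (0.0579), its 6 h call when sham replicate 1 or 2 or 6 h replicate 1 or 2 was left out (adjusted p 0.0546 to 0.0902) and with no filter on low counts (0.108), and the call of Psmc5 when sham replicate 2 or 6 h replicate 2 was left out (adjusted p 0.0522 to 0.0621), with no filter on low counts (0.074) and in the length-corrected fit (0.06).

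The 14 further genes of the 19S cap held the largest rise. Psmd11, a subunit of the lid, rose at 3, 6 and 12 h. Psmd11 (chromosome 11, 80428615 to 80473248, plus strand) had 70.6, 72.9 and 73.4 CPM in sham hearts, 67.0, 74.8 and 63.1 after ischemia and 65.6, 69.5 and 69.9 at 0.5 h. It had 73.2, 71.7 and 72.1 at 1 h, 83.8, 77.0 and 85.9 at 1.5 h and 106, 95.6 and 93.7 at 3 h. It had 125, 181 and 144 at 6 h and 125, 118 and 131 at 12 h. From 1.5 h on every library lay above every sham library, the 0.5 h libraries lay just below sham without a call, and 6 h replicate 2 was the highest of all 24.

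The log2 fold change of Psmd11 was 0.45 ± 0.11 at 3 h (edgeR adjusted p = 0.0031), 1.06 ± 0.11 at 6 h (6.39e-08) and 0.78 ± 0.11 at 12 h (1.01e-05), and all 3 calls were made under every alternative. Neutrophil markers were also highest in 6 h replicate 2, at 154 CPM against 63.2 and 83.5 in the other 6 h libraries, and their part in the level of Psmd11 was not tested. At 12 h those markers summed to 57.3 to 65.6 and Psmd11 had 124 ± 6.48 (SD, n = 3).

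Psmd4 encodes a ubiquitin receptor of the cap. Psmd4 (chromosome 3, 95032694 to 95042614, minus strand) had 54.3, 59.1 and 56.9 CPM in sham hearts, 60.3, 66.0 and 65.6 after ischemia and 71.7, 71.4 and 66.0 at 0.5 h. It had 83.0, 67.7 and 70.3 at 1 h, 66.7, 63.8 and 70.2 at 1.5 h and 80.2, 87.0 and 84.3 at 3 h. It had 83.9, 92.5 and 80.1 at 6 h and 79.3, 81.5 and 80.5 at 12 h. All libraries outside the sham group lay above all sham libraries.

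For Psmd4 the log2 fold change was 0.30 ± 0.09 at 0.5 h (edgeR adjusted p = 0.0442), 0.37 ± 0.10 at 1 h (0.0132), 0.56 ± 0.10 at 3 h (8.83e-05), 0.59 ± 0.09 at 6 h (2.12e-05) and 0.50 ± 0.09 at 12 h (0.000271). The calls from 3 h on were made under every alternative. That at 0.5 h was lost when any sham replicate or any 0.5 h replicate was left out (adjusted p 0.0712 to 0.147). It was also lost with no filter on low counts (0.255), with a block for replicate number and in the length-corrected fit (0.0725). At 1 h the call was lost when sham replicate 1 or 1 h replicate 1 was left out (adjusted p 0.0704 to 0.0784) and with no filter on low counts (0.107).

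Psmd3, a lid subunit, had 92.5 ± 2.49 (SD, n = 3) CPM in sham hearts, 129 ± 0.413 at 3 h, 127 ± 9.27 at 6 h and 119.9 ± 3.31 at 12 h. Its log2 fold changes were 0.48 ± 0.11 (edgeR adjusted p = 0.00146), 0.46 ± 0.11 (0.00129) and 0.37 ± 0.11 (0.0101), all called under every alternative. The lid subunit Psmd8 rose by 0.43 at 3 h (0.00429), also under every alternative, and its 6 h call was lost when sham replicate 1 or 2 or 6 h replicate 1 or 2 was left out (adjusted p 0.0946 to 0.153), with no filter on low counts (0.122) and in the length-corrected fit (0.108). Psmd7, which pairs with the lid deubiquitinase, rose by 0.41 at 6 h (0.00482) and 0.35 at 12 h (0.0191). The 6 h call of Psmd7 was lost when 6 h replicate 2 was left out (adjusted p = 0.0634), and the 12 h call when sham replicate 1 or 2 or 12 h replicate 2 was left out (adjusted p 0.0614 to 0.0715).

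Psmd2, a scaffold of the base, rose by 0.28 at 6 h (edgeR adjusted p = 0.0149), a call lost when sham replicate 2 or 6 h replicate 2 was left out (adjusted p 0.0547 to 0.0664) and with no filter on low counts (0.12). Psmd13 was called higher at 6 h and 12 h. Its 6 h call was lost when sham replicate 1 or 3 or any 6 h replicate was left out (adjusted p 0.057 to 0.212) and with no filter on low counts (0.134). Its 12 h call was lost when sham replicate 1 or 3 or any 12 h replicate was left out (adjusted p 0.0682 to 0.242). The 12 h call was also lost with no filter on low counts (0.118), with a block for replicate number and in the length-corrected fit (0.0751). Psmd9, an assembly chaperone of the base, was called higher at 3 h, a call lost when sham replicate 3 or 3 h replicate 1 was left out (adjusted p 0.078 to 0.0817). Psmd13 shares 10.1% of its exon bases with Sirt3 and Psmd9 25.5% with Gm26745, both on the opposite strand. Psmd6, Psmd10, Psmd12 and Psmd14, the last of which is the lid deubiquitinase, were not called against sham and had log2 fold changes of -0.16 to 0.13 at 6 h.

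Psmd5, a chaperone of base assembly, fell at 0.5, 1, 3 and 6 h. It had 22.4, 17.1 and 20.9 CPM in sham hearts, 13.8, 14.6 and 15.3 at 0.5 h, 16.2, 13.6 and 14 at 1 h and 16.2, 15.1 and 15 at 3 h. It had 17.3, 15.2 and 13.5 at 6 h and 21.7, 19.5 and 18.8 at 12 h. The libraries from 0.5 h to 3 h lay below sham, and those at 6 h and 12 h overlapped it. On the log2 scale the change was -0.47 ± 0.14 at 0.5 h (edgeR adjusted p = 0.0358), -0.47 ± 0.14 at 1 h (0.0369), -0.38 ± 0.14 at 3 h (0.0402) and -0.39 ± 0.14 at 6 h (0.0257).

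None of the 4 calls of Psmd5 was made under every alternative. The 0.5 h call was lost when sham replicate 1 or 3 or any 0.5 h replicate was left out (adjusted p 0.0747 to 0.15), with library totals as the scale (0.139), with no filter on low counts (0.0679) and in the length-corrected fit (0.121). That at 1 h was lost when sham replicate 1 or 3 or any 1 h replicate was left out (adjusted p 0.0556 to 0.162), with library totals as the scale (0.0759), with no filter on low counts (0.0668), with multiply mapped reads included (0.0511) and in the length-corrected fit (0.203). At 3 h the call was lost when sham replicate 1 or 3 or any 3 h replicate was left out (adjusted p 0.0515 to 0.173), with no filter on low counts (0.118) and in the length-corrected fit (0.139). The 6 h call was lost when sham replicate 1 or 3 or 6 h replicate 2 or 3 was left out (adjusted p 0.0657 to 0.127), with library totals as the scale (0.0615), with no filter on low counts (0.0898) and in the length-corrected fit (0.0996). Psmd1, the large scaffold of the base, had 127, 121 and 123 CPM in sham hearts and 94.1, 89.0 and 94.3 at 0.5 h, below sham, a log2 fold change of -0.42 ± 0.11 (edgeR adjusted p = 0.0156). That call was lost when sham replicate 1 or 3 or 0.5 h replicate 1 or 2 was left out (adjusted p 0.0519 to 0.0582) and with library totals as the scale (0.0773).

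Among the activators, which open the core without ubiquitin recognition, Psme4 fell and Psme3 rose, while Psme1, Psme2 and Psme2b were not called. Psme4, known as PA200, is linked to DNA repair and to the breakdown of histones. Psme4 (chromosome 11, 30771726 to 30880361, plus strand) had 424, 423 and 429 CPM in sham hearts, 426, 403 and 303 after ischemia and 293, 324 and 302 at 0.5 h. It had 304, 341 and 361 at 1 h, 359, 425 and 348 at 1.5 h and 311, 409 and 327 at 3 h. It had 287, 250.1 and 271 at 6 h and 393, 402 and 445 at 12 h. The libraries at 0.5, 1, 3 and 6 h lay below all sham libraries, lowest at 6 h, and those after ischemia, at 1.5 h and at 12 h overlapped sham.

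The log2 fold change of Psme4 was -0.47 ± 0.13 at 0.5 h (edgeR adjusted p = 0.0197), -0.66 ± 0.13 at 6 h (0.00018) and -0.04 ± 0.13 at 12 h, not called (0.836). The 6 h call was made under every alternative. That at 0.5 h was lost when any sham replicate or 0.5 h replicate 1 or 3 was left out (adjusted p 0.0525 to 0.0878), with library totals as the scale (0.056) and in the length-corrected fit (0.0572). Psme4 was the longest of the 45 genes, at 8382 bases.

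Psme3, the nuclear activator PA28 gamma, had 64.5, 61.7 and 57.3 CPM in sham hearts and 71.5, 85.5 and 77.4 at 6 h, without overlap. Its log2 fold change was 0.35 ± 0.11 (edgeR adjusted p = 0.00807), a call lost when 6 h replicate 2 was left out (adjusted p = 0.0574). Psme1 and Psme2 form the activator that interferon induces. Psme1 (chromosome 14, 55578123 to 55581529, plus strand) had 105, 95.8 and 100.5 in sham hearts and 98.3, 80.8 and 83.2 at 6 h, a log2 fold change of -0.20 ± 0.12 (0.183). Psme2 (chromosome 14, 55587441 to 55591113, minus strand) had 26.5, 23.4 and 26.1 in sham hearts and 29.7, 23.3 and 21.7 at 6 h, a log2 fold change of -0.02 ± 0.14 (0.91). Both overlapped sham in every group. Reads shared with near copies make both uncertain, with 90.4% of the Psme1 and 93.3% of the Psme2 reads unique among all those counted with multiple hits.

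Of the 3 other genes, Psma8 had at most 0.753 CPM in any library and was not called. Psmc3ip had 1.09, 1.03 and 1.44 CPM in sham hearts and 1.81, 2.61 and 1.86 after ischemia, without overlap. Its log2 fold change of 0.82 ± 0.29 was not called (edgeR adjusted p = 0.403), though the test across the 8 groups called it (0.00364). It shares 21.2% of its exon bases with Mlx on the opposite strand.

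Per length, sham levels of the 34 standard 20S and 19S genes ran up to 77.7 ± 3.65 RPKM (SD, n = 3) for Psmb1. The lowest was 1.59 ± 0.213, for the assembly chaperone Psmd9. Psmb1, Psmb7 and Psma2 were the highest of all 45, with 71.5 ± 1.11 for Psmb7 and 64.4 ± 3.83 for Psma2. Psme4 ranked 7, at 50.7 ± 0.380, and Psmd11 ranked 36, at 11.3 ± 0.230.

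Between neighbouring times few proteasome genes were called. From ischemia to 0.5 h, from 0.5 h to 1 h and from 1 h to 1.5 h 0 were called by edgeR, with 5, 0 and 7 at an unadjusted p under 0.05, and DESeq2 called 0, 0 and 1. The share of all genes called there is not given here. Of the 17 genes of ubiquitin supply and shuttling described below, edgeR also called 0 in each of these comparisons, so the absence of calls was not particular to proteasome genes. From 1.5 h to 3 h Psmd4 rose by 0.33 ± 0.09 on the log2 scale (edgeR adjusted p = 0.0328; of all genes 5.36% were higher and 3.17% lower). From 3 h to 6 h Psmd11 rose by 0.61 ± 0.11 (0.000256) and Psme3 by 0.36 ± 0.11 (0.0119), and Psme4 changed by -0.37 ± 0.13 (0.0301), with 14.7% of all genes higher and 13.2% lower. From 6 h to 12 h Psme4 rose by 0.62 ± 0.13 (0.00231), with 6.49% of all genes higher and 6.68% lower.

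The calls of Psmd11 from 3 h to 6 h and of Psme4 from 6 h to 12 h were made under every alternative. That of Psmd4 was lost without 1.5 h replicate 1 or 2 or any 3 h replicate (adjusted p 0.0526 to 0.144) and with no filter on low counts (0.221). That of Psme3 was lost without 3 h replicate 3 (0.0662), without 6 h replicate 2 (0.0787) and with no filter on low counts (0.0551). That of Psme4 from 3 h to 6 h was lost without 3 h replicate 2 (0.251), 6 h replicate 2 (0.127) or 6 h replicate 3 (0.0746), with library totals as the scale (0.0652) and with no filter on low counts (0.0595).

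Other genes of the pathway are given beside the share of all genes called at 6 h, 24.6% higher and 22.9% lower. Of 12 tested assembly factors and further particle genes 3 rose and 4 fell at 6 h, with a median log2 fold change of 0.10, and the 3 that rose were a share near that of all genes. Adrm1, a ubiquitin receptor of the cap, rose by 0.84 ± 0.13 (edgeR adjusted p = 8.71e-06) and Sem1, a small subunit of the cap, by 0.68 ± 0.19 (0.00575). The core assembly chaperone Psmg1 changed by -0.45 ± 0.16 (0.0209) and Usp14, a deubiquitinase on the cap, by -0.44 ± 0.14 (0.014). At 12 h 1 gene of the list was higher and 1 lower (of all genes 16.9% and 14.9%).

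Of 11 genes of transcription control 3 rose at 6 h. Irf8, a factor of myeloid cells, rose by 0.97 ± 0.22 (edgeR adjusted p = 0.000883), Nfe2l2, the oxidative stress factor, by 0.55 ± 0.18 (0.0157) and Nfe2l1 by 0.32 ± 0.12 (0.0276).

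Of 17 genes of ubiquitin supply and shuttling 10 rose and 1 fell at 6 h, with a median log2 fold change of 0.33. Ubb, a polyubiquitin gene, went from 211 ± 15.2 to 501 ± 102 CPM (SD, n = 3), a log2 fold change of 1.25 ± 0.18 (edgeR adjusted p = 5.96e-06). Rps27a, which encodes ubiquitin fused to a ribosomal protein, rose by 0.68 ± 0.15 (0.000686). Of 9 genes of MHC class I processing, the pathway that uses immunoproteasome peptides, 3 were higher and 1 lower at 3 h, with a median log2 fold change of 0.27 (of all genes 18.4% higher and 16.9% lower). At 6 h 0 rose and 2 fell, the latter a share near the 22.9% of all genes, with a median of -0.04. Those 2 were Erap1, a peptide-trimming enzyme, at -0.72 ± 0.13 (0.000118), and B2m, the light chain of the class I molecule, at -0.71 ± 0.22 (0.0114).

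Markers of cell types moved over the same hours. Neutrophil markers summed to 3.63 to 6.56 CPM in sham hearts, 63.2 to 154 at 6 h and 57.3 to 65.6 at 12 h, with 7 of 7 tested higher at both times and Ly6g at 0 in sham. Pan-leukocyte markers summed to 72.8 to 84.9 in sham hearts and 101 to 157 at 6 h, with 3 of 6 higher and 1 lower. Monocyte and macrophage markers had 6 of 10 higher and 2 lower at 6 h, with sums of 423 to 444 in sham hearts and 437 to 495 at 6 h. The neutrophil sums were thus highest at 6 h, the time with the most proteasome calls. It was also the time with the most calls among all genes, 24.6% higher and 22.9% lower.

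Lymphocyte markers summed to 2.24 to 2.60 CPM in sham hearts and 1.24 to 1.71 at 6 h, with 3 of 7 tested and 0 called. Fibroblast markers summed to 884 to 925 in sham hearts and 415 to 609.5 at 6 h, with 2 of 6 higher and 4 lower. Cardiomyocyte markers summed to 52108 to 59168 at 6 h and 42029 to 49847 at 12 h, with 3 of 8 lower at each time and 0 higher. Endothelial markers summed to 857 to 952 in sham hearts and 1088 to 1104 at 6 h, with 1 of 6 higher. The part of these shifts in the levels of the proteasome genes was not tested.

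**Figure D5:**
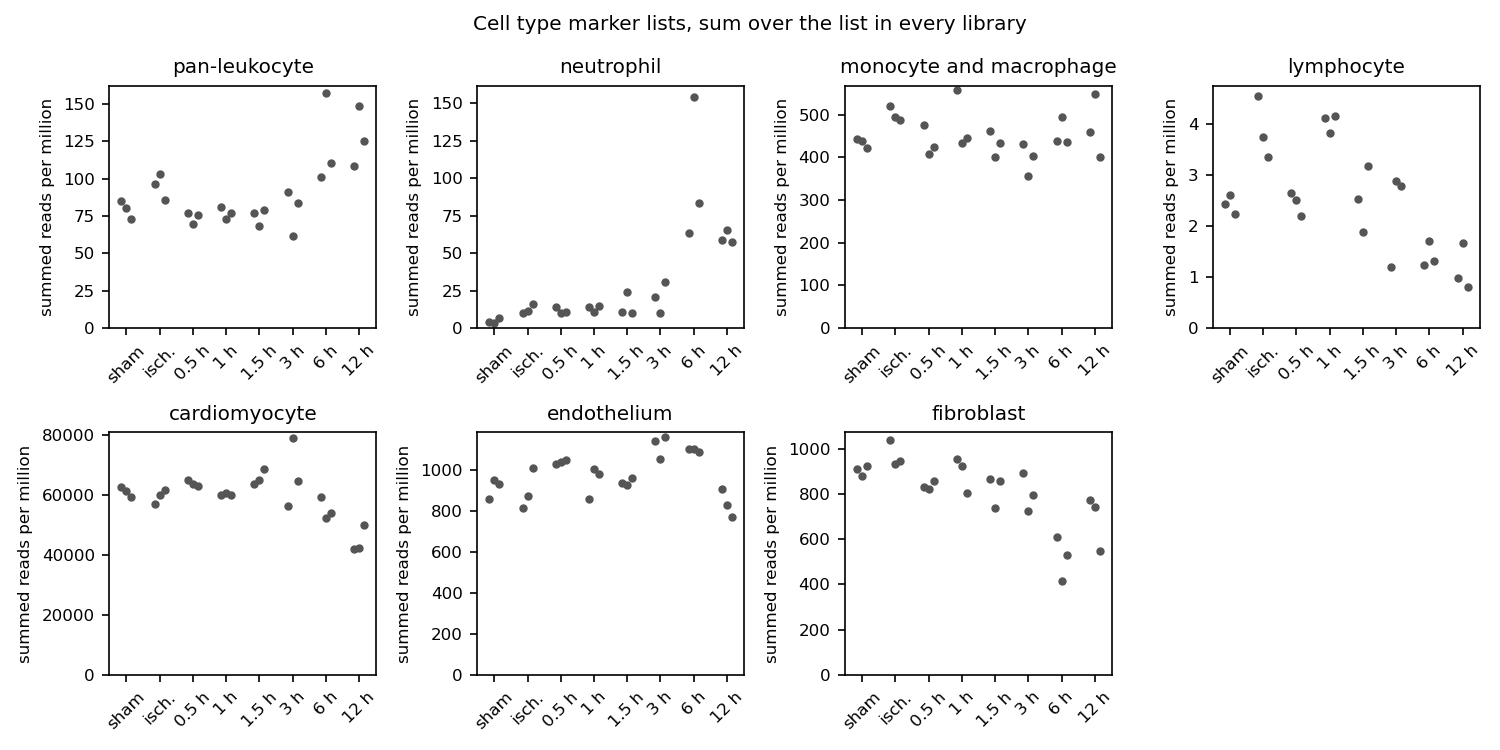
Summed CPM of the marker lists of 7 cell types in every library over the 8 groups. Neutrophil sums reach at most 30.7 up to 3 h and at least 57.3 at 6 h and 12 h, fibroblast sums fall to between 415 and 609.5 at 6 h, and cardiomyocyte sums are lowest at 12 h.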

How the data were processed

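Total RNA from flash frozen hearts was made into libraries with a TruSeq RNA kit, per the labels' protocols, in 24 libraries of 8 groups. The authors deposited, per the file headers, read counts per gene for each library, with and without duplicates and with and without multiply mapped reads, and a gene length. The submitters' processing notes name the build mm10. Aligner, counting tool and strand setting were not given in the sources used here. Unique counts that include duplicates (39.2% to 54.5% duplicates per library) were analysed, and 97.97% of gene IDs were matched to symbols. All 24 libraries entered 1 edgeR 4.0.16 quasi-likelihood fit (R 4.3.3, limma 3.58.1) with 1 term per group, TMM factors and a low-count filter (minimum count 10, minimum total 15), leaving 15128 genes. Benjamini-Hochberg adjustment ran over all of them within each comparison, and calls had an adjusted p under 0.05. Ratios were tested by permutation with a pseudocount of 0.5 (scipy 1.17.1). CPM use TMM-scaled library sizes, and RPKM divide CPM by the deposited length. DESeq2 1.42.0, other scalings and filters, a replicate block and leaving out each library were alternatives, and the length-corrected fit was added after the data were seen. The fit was tested on simulated data.

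Library values are given for the gene of each role with the largest called change against sham, and for Psmb5 to Psmb10, Psme1, Psme2, Psmd4 and Psmd11; other genes with library values were named after their values were seen. From each pathway list at most 4 genes are named, the called ones with the largest change. Some genes of these lists are not reported here. Members and lists were chosen with earlier results of these data known. Replicate numbers did not pair the samples.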

Additional observations from a re-analysis of the deposited data

Results flagged for a closer look

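The 5 changes below, all between neighbouring times, were set apart because edgeR's quasi-likelihood test of the difference between those times passed. Psmd4 was 0.33 higher on the log2 scale at 3 h than at 1.5 h. Psmd11 was 0.61 higher and Psme3 0.36 higher at 6 h than at 3 h, where Psme4 had a log2 difference of -0.37. Psme4 was then 0.62 higher at 12 h than at 6 h. Without 6 h replicate 2, the library with the highest Psmd11 level, the difference of Psmd11 between 3 h and 6 h was 0.45 (edgeR adjusted p = 0.00439).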

How the results depend on the processing

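Of the 62 calls against sham, 24 were made under every setting, and over 868 pairs of call and setting 704 kept the call, 164 lost it and 0 turned sign. With no filter on low counts 5 genes were called at 1 h in place of 8, 1 at 1.5 h, 1 between 1 h and 1.5 h, 0 between 1.5 h and 3 h and 1 between 3 h and 6 h. Library totals gave 23 calls at 12 h in place of 9 and 2 between 6 h and 12 h; the share of higher calls among all genes called went from 62.4% to 87.6% at 0.5 h, from 68.6% to 81.7% at 1 h, from 53.1% to 76.9% at 12 h and from 49.3% to 80.7% between 6 h and 12 h. DESeq2 called 1 gene between 1 h and 1.5 h and 2 between 6 h and 12 h, and removing duplicates 2 in the latter. The length-corrected fit called 4 at 1 h and 3 between 6 h and 12 h. The cause of these changes was not tested. Leaving out 1 library gave 1 (without 0.5 h replicate 1) to 5 calls at 0.5 h, 2 (without 1 h replicate 1) to 10 at 1 h, 9 (without 3 h replicate 3) to 13 at 3 h and 13 (without 6 h replicate 2) to 20 at 6 h. It gave 0 to 4 (without ischemia replicate 3) between ischemia and 0.5 h, 0 to 1 between 1.5 h and 3 h, 1 to 3 between 3 h and 6 h, and 1 to 2 between 6 h and 12 h. The permutation p of the Psmb8 to Psmb5 ratio ran from 0.0321 (without 12 h replicate 2) to 0.215 with 1 library left out.

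With the replicate block 8 genes were called at 0.5 h, 7 at 1 h, 0 at 1.5 h, 15 at 3 h, 21 at 6 h and 8 at 12 h. Of the calls against sham it did not make those of Psmd4 at 0.5 h (adjusted p = 0.0584), Psma7 at 1 h (0.0524) and Psmd13 at 12 h (0.0547), and it changed no other call named. The pairing was checked: 6 of 84 correlations between same-numbered libraries were over 0.1 (-0.179 to 0.199), and a library correlated best with its own number in 49 of 168 looks, so the numbers were not taken as pairs. By the permutation test within the block, the ratio of Psmb8 to Psmb5 gave p = 0.141, that of Psmb9 to Psmb6 p = 0.011 and that of Psmb10 to Psmb7 p = 0.576.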

Other observations

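Muscle ubiquitin ligases, the enzymes that mark heart proteins for the proteasome, split at 6 h. Of 7 genes 3 rose and 3 fell, with a median log2 fold change of 0.03 beside -0.01 for all genes. All genes called at 6 h also went both ways, with 24.6% higher and 22.9% lower. Fbxo32, the ligase atrogin-1, went from 216 ± 45.9 to 77.1 ± 19.2 CPM (SD, n = 3), a log2 fold change of -1.48 ± 0.20 (edgeR adjusted p = 1.6e-06). Nedd4 changed by -0.71 ± 0.11 (1.1e-05) and Trim63, the ligase MuRF1, by -0.59 ± 0.15 (0.00305), while Fbxo30 rose by 0.67 ± 0.14 (0.000578). At 12 h 0 of the 7 were higher and 1 was lower (of all genes 16.9% and 14.9%).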
